A study of Mus musculus with 2 samples.

Results

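The GIMAP family (GTPases of the immunity-associated proteins) was represented by 8 genes, Gimap1, Gimap3, Gimap4, Gimap5, Gimap6, Gimap7, Gimap8 and Gimap9, taken by symbol from the 23167 symbols of the deposited tables. All 8 were found in both tables, and no other symbol beginning with Gimap was present. The study measured ribosomal-RNA-depleted total RNA of naive T cells from mice that carry a Foxp3-GFP reporter on a C57/BL6 background. One group was naive CD4 cells and the other naive CD8 cells. Both were taken from spleen and lymph nodes and purified by FACS for high CD62L and low CD44, with neither CD25 nor the Foxp3-GFP signal. The labels name no treatment and no deleted gene for either group. Each group was 1 library, with the age of the mice and the number of mice per library not given in the sources used here. No difference below therefore has a replicate check, and no p-value is given. Levels are RPKM, reads scaled to the length of the gene and to the number of reads of the library, so they can be compared between genes of different length. The library totals behind them were 24741945 reads in the CD4 library against 23853921 in the CD8 library. Brackets give 95% intervals from the whole reads recovered from the RPKM. Only counting error is covered by them, and they set library against library, not cell type against cell type.

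GIMAP proteins share a guanine nucleotide binding domain of the AIG1 type, and several are anchored in membranes of lysosomes, mitochondria, the Golgi or the endoplasmic reticulum. They are made mainly by lymphocytes, and their genes lie side by side in 1 cluster. In rodents the loss of Gimap5 leads to a shortage of naive T cells in the periphery, and Gimap1 is needed for the survival of mature T and B cells.

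All 8 genes were expressed in both libraries, and the family spanned a wide range of levels. Gimap6, whose product has been tied to autophagy through the ATG8 protein GABARAPL2, was the highest member, at 747 RPKM in CD4 (738 to 755) against 518 RPKM in CD8 (511 to 525). Of the 10228 compared genes, 84 stood higher in CD4 and 118 in CD8, where compared genes are those at 1 RPKM or more in at least 1 library. Gimap3, a close paralog of Gimap5, followed at 510 RPKM (CD4) and 308 RPKM (CD8). Gimap4, a regulator of T cell death after its induction, was at 478 RPKM (CD4) and 279 RPKM (CD8). These 3 genes held 76.6% of the summed family RPKM in CD4 and 70.5% in CD8.

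The other 5 members were lower in both libraries. Gimap8, which encodes the longest protein of the family with several GTPase domains, was at 208 RPKM (CD4) and 146 RPKM (CD8). Gimap9 was at 124 RPKM (CD4) and 96.7 RPKM (CD8). Gimap1 was at 117 RPKM (CD4) and 118 RPKM (CD8). Gimap7 was at 50.9 RPKM (CD4) and 61.3 RPKM (CD8). Gimap5 was the lowest, at 30.4 RPKM in CD4 (28.8 to 32.0) against 40.5 RPKM in CD8 (38.7 to 42.4), and 2606 compared genes in CD4 and 1807 in CD8 stood above it. The highest member exceeded the lowest 24.6-fold in CD4 and 12.8-fold in CD8, so the family was less spread out in the CD8 library.

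**Figure D1:**
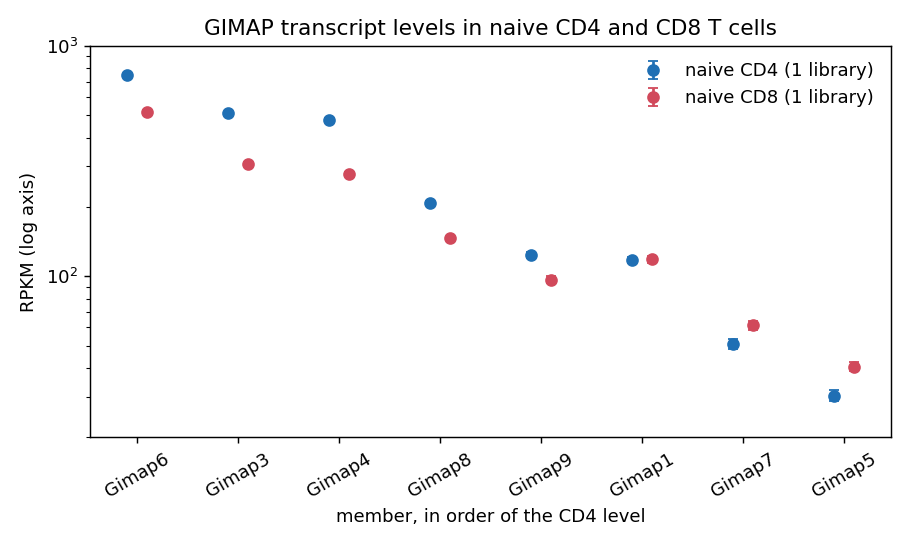
RPKM on a log axis of the 8 GIMAP genes in the naive CD4 library (blue) and the naive CD8 library (red), in order of the CD4 level; bars are 95% counting intervals of the single library and are mostly smaller than the points. Gimap6 is highest in both libraries and Gimap5 lowest, and the colours change order at Gimap1, Gimap7 and Gimap5.

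The order of levels was the same in both libraries except for Gimap9 and Gimap1, which changed places. In CD4, Gimap9 stood 1.05-fold above Gimap1 (1.01 to 1.10), the narrowest step of that library together with the 1.07-fold step from Gimap3 to Gimap4 (1.05 to 1.09). In CD8, Gimap1 stood 1.22-fold above Gimap9 (1.17 to 1.28). No step between neighbouring genes had a counting interval that held 1 in either library. With 1 library per cell type, the spread between samples that would decide these small steps was not measured.

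Toward CD4, 5 of the 8 members were higher by more than counting error. A counting interval on the CD4 side of 1 was also found for 45.2% of all compared genes, so this property is common at this depth. In bulk RNA, a change in the share of cells that express a gene and a change in RNA per cell cannot be told apart. Gimap4 differed most, with 21381 reads in CD4 against 12033 in CD8 and a 1.71-fold ratio of RPKM (1.68 to 1.75). Gimap3 had 27015 and 15711 reads and a ratio of 1.66 (1.63 to 1.69). Gimap6, with 29720 and 19889 reads, was 1.44-fold higher in CD4 (1.41 to 1.47). Gimap8 was 1.43-fold higher (1.40 to 1.46), and Gimap9 was 1.28-fold higher (1.22 to 1.34).

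Gimap5 and Gimap7 went the other way. Gimap5 had 1457 reads in CD4 against 1874 in CD8 and was 1.33-fold higher in CD8 (1.25 to 1.43). Gimap7, whose product is known to stimulate the GTPase activity of a related GIMAP protein, had 1596 and 1852 reads and was 1.20-fold higher in CD8 (1.13 to 1.29). An interval on the CD8 side of 1 was found for 27.2% of compared genes. Gimap1 had 4356 and 4237 reads, and its CD4 to CD8 ratio of 0.991 (0.950 to 1.03) was not distinguishable from 1 at this depth. With each library rescaled to the same sum of RPKM, the counts of members on the CD4 and CD8 sides were 6 and 1 in place of 5 and 2. Gimap1 then stood above 0 on the log2 scale, at 0.20, and the interval of Gimap7 no longer lay on the CD8 side.

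**Figure D2:**
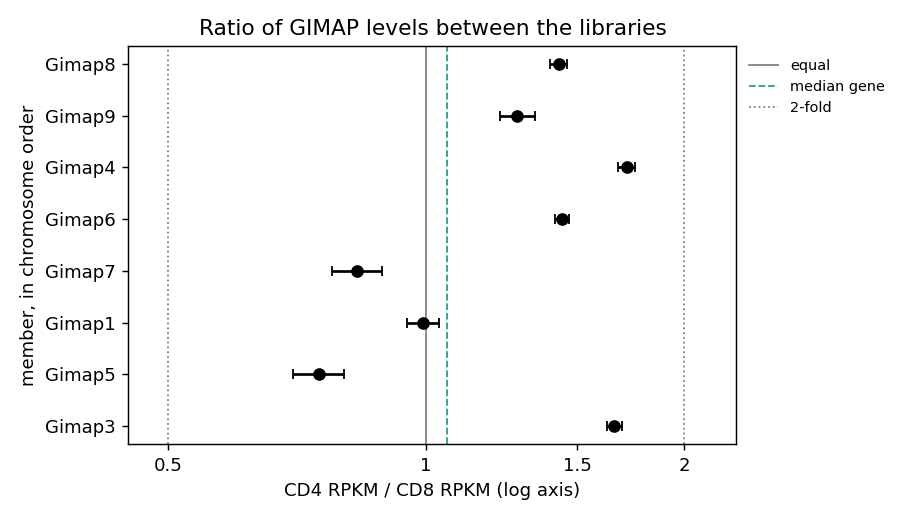
Ratio of CD4 RPKM to CD8 RPKM on a log axis for the 8 GIMAP genes in chromosome order, with 95% counting intervals (1 library per cell type); lines mark equality, the median gene among those reaching 1 RPKM in both libraries, and 2-fold. The ratios run from 0.750 for Gimap5 to 1.71 for Gimap4 and none reaches 2-fold.

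By the rule of size, an absolute log2((CD4 RPKM + 1)/(CD8 RPKM + 1)) of 1 or more, 0 of the 8 members were at least 2-fold apart, against 5.48% of compared genes. The median of this log2 difference over the 8 members was 0.43, and 15.1% of compared genes were at or above that value. Over the genes that reached 1 RPKM in both libraries the median was 0.08. On the same scale, 5 members were above 0 and 3 below, against 59.5% of compared genes above 0. Gimap4 at 0.77 and Gimap3 at 0.73 stood at percentiles 95.6 and 94.8 of all compared genes. Gimap5 at -0.40 stood at percentile 12.6. Summed over the family, the level was 2266 RPKM (CD4) and 1568 RPKM (CD8), a 1.44-fold ratio (1.43 to 1.46).

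**Figure D3:**
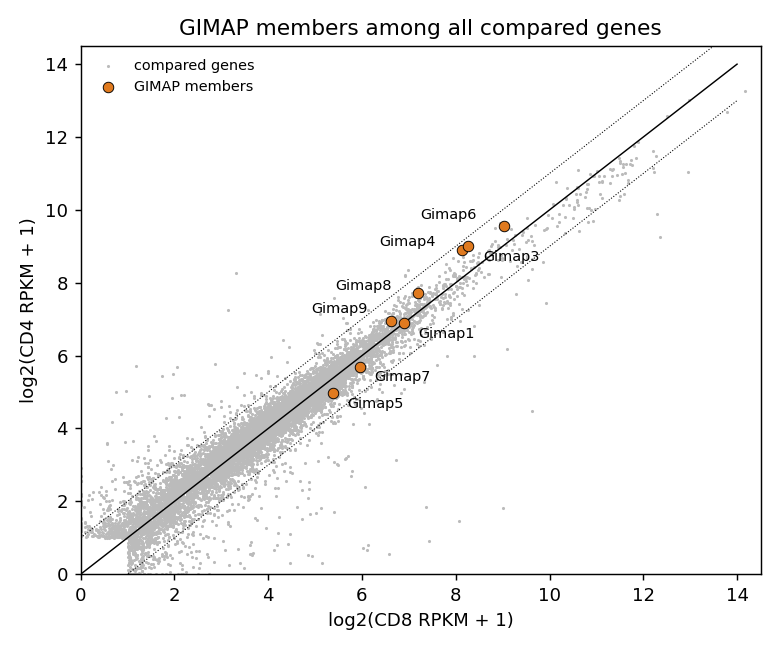
Level of every compared gene (grey) and of the 8 GIMAP genes (orange) as log2(RPKM + 1), CD8 on the horizontal and CD4 on the vertical axis, 1 library each; the solid line marks equality and the dotted lines a 2-fold difference on this scale. Gimap3 at 0.73 and Gimap4 at 0.77 above the solid line come closest to the upper dotted line, and Gimap5 and Gimap7 lie below the solid line.

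The family's make-up, each gene's share of the summed family RPKM, does not depend on how the libraries are scaled to each other. Gimap6 made up 33.0% of it in CD4 and 33.1% in CD8, and Gimap8 9.20% and 9.31%. The share of Gimap3 was 22.5% in CD4 and 19.6% in CD8, and that of Gimap4 was 21.1% and 17.8%. The lower genes took a larger part in CD8. Gimap1 held 5.17% in CD4 and 7.54% in CD8, Gimap7 held 2.25% and 3.91%, and Gimap5 held 1.34% and 2.58%. Across the 8 genes, the mean level and the log2 difference had a Spearman correlation of 0.881, a description over genes that share the same 2 libraries. Over the compared genes this correlation was -0.036. For gene length it was 0.381 over the members and 0.190 over the compared genes.

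Gimap3 and Gimap5 are close paralogs that share part of their sequence, and they differed in opposite directions. Gimap3 was 16.8 times the level of Gimap5 in CD4 and 7.6 times its level in CD8, a 2.21-fold change of the ratio between the pair (2.06 to 2.37). Reads from a stretch that both transcripts share cannot be assigned by sequence alone, and how the authors treated reads that map to several places is not given in the sources used here. In the GENCODE M21 transcripts, 190 of 2528 different 50-base stretches of Gimap3 (7.52%) also occurred in Gimap5, where they were 4.53% of 4195. At 35 bases the shared number was 299. The longest identical run is shown as an example of the stretches where reads of the pair cannot be told apart, and further shared stretches lie outside it. It is 140 bases long, lies in the coding sequence of both genes, and covers bases 614 to 753 of a Gimap3 transcript and bases 427 to 566 of a Gimap5 transcript.
Gimap3 and Gimap5 shared run: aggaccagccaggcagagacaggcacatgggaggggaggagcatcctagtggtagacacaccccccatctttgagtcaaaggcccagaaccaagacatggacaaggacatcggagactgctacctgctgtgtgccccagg

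The values of both genes are therefore uncertain to the extent that such reads were shared or dropped. Leaving both out, the log2 ratio of the summed RPKM of the other 6 members was 0.50. Their median log2 difference stayed at 0.43, which was fixed in advance and is no check. Gimap3 (0.73) lies above and Gimap5 (-0.40) below the 2 middle members, so dropping both cannot move the median. At 50 bases, Gimap4, Gimap8 and Gimap9 shared no stretch with any other annotated gene, and Gimap6 shared 8 of 3537 stretches with Was and Cd63.

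The 3 members that were not higher in CD4 stand next to each other in the cluster. In the order of the GENCODE M21 annotation the genes run Gimap8, Gimap9, Gimap4, Gimap6, Gimap7, Gimap1, Gimap5 and Gimap3, with Gimap6 and Gimap3 on the minus strand and the other 6 on the plus strand. Gimap7, Gimap1 and Gimap5 are also the 3 members that the annotation overlaps with Gm28053, a gene model on the same strand that extends from Gimap7 into Gimap5. This was seen after the ratios were known. At 50 bases, Gm28053 held 4.78% of the stretches of Gimap1, 2.50% of those of Gimap5 and 1.39% of those of Gimap7. It also held 0.32% of those of Gimap3, which was higher in CD4. Gm28053 had no row in the deposited tables, and its part in the ratios was not tested. Gimap1 is overlapped on the opposite strand by Gimap1os as well, which held 32.4% of its 50-base stretches. The strand setting of the counting is not given in the sources used here. Whether reads from the stretches that Gimap1 and Gimap1os share were told apart by strand is therefore not known.

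The genes on both sides of the cluster were mostly low. Of the 10 protein-coding genes on each side in the annotation, 18 of 20 were in the tables and 8 were at 1 RPKM or more in at least 1 library. The nearest on the Gimap8 side, AI854703, was at 0.872 RPKM (CD4) and 0.904 RPKM (CD8), and Zfp775 at 5.20 and 4.40 RPKM. Lrrc61 was at 4.81 RPKM (CD4) and 4.80 RPKM (CD8). Repin1 was at 1.27 and 1.35 RPKM.

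Beyond Gimap3, Tmem176b was at 1.01 RPKM (CD4) and 0.473 RPKM (CD8), with 51 and 23 reads, and Tmem176a was at 1.49 and 0.868 RPKM. Both encode membrane proteins of the MS4A-like type, and both ratios lay on the CD4 side of 1, at 2.14 (1.28 to 3.67) for Tmem176b and 1.72 for Tmem176a, whose lower bound was 1.01. Farther out, 2410003K15Rik, which the annotation calls Malsu1 and which encodes a mitochondrial ribosome assembly factor, was at 15.9 and 18.7 RPKM. The splicing regulator gene Tra2a, the last of the 10 genes on that side, was the highest flanking gene at 53.3 RPKM (CD4) and 48.4 RPKM (CD8). Of the flanking genes only Zfp467, the last of the 10 on the Gimap8 side, was at least 2-fold apart on the log2 scale with the pseudocount, at 2.67 RPKM (CD4) and 0.513 RPKM (CD8). The remaining flanking genes, Sspo, Atp6v0e2, Rarres2, Abp1, 1600015I10Rik, Doxl2, Svs1, Gpnmb and Igf2bp3, were below 1 RPKM in both libraries, and Rarres2, Abp1, 1600015I10Rik, Doxl2 and Svs1 were listed at 0 in both.

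**Figure D4:**
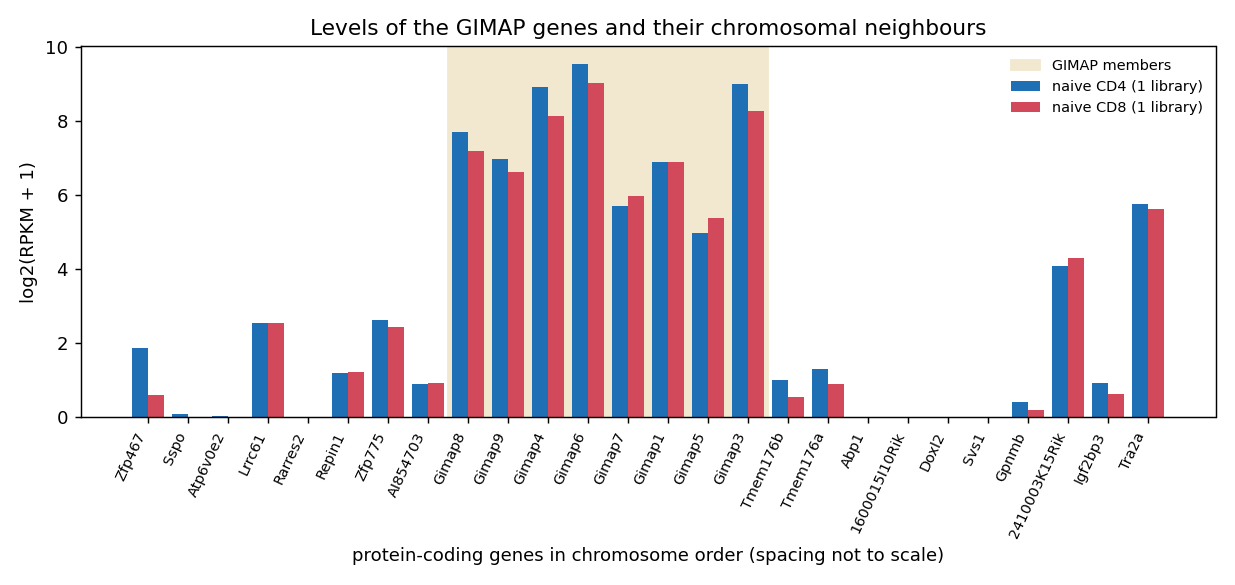
Level as log2(RPKM + 1), 1 bar per library, of the 8 GIMAP genes (shaded) and the 18 measured flanking protein-coding genes in chromosome order, with spacing not to scale. The GIMAP bars stand between the low neighbours on both sides, and Tra2a at the right end reaches the range of the lowest GIMAP genes.

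The RefSeq promoter table (GRCm38.p6) held all 8 genes in 9 windows of 300 bases, 250 before and 50 after a start, with 2 starts for Gimap8. Motifs of 5 factor families active in T cells, and the TATA motif, were counted in them on both strands. The ETS motif AGGAAG was found in at least 1 window of 7 of 8 members and in 35.4% of all 32851 windows. The loose RUNX pattern TGNGGT, which takes any base at N, was found for 6 of 8 members and in 45.8% of all windows. In Gimap8 and Gimap5 the match was TGGGGT, outside the stricter RUNX core TGTGGT or TGCGGT. The share of all windows with the stricter core was not counted. The STAT motif TTCNNNGAA was found for 4 members (8.30% of windows), the TCF/LEF motif CTTTGA for 2 (16.0%), the FOXO motif GTAAACA for 1 (3.65%) and the TATA motif TATAAA for 1 (13.6%). In Gimap8 an ETS match overlapped a STAT match, and in Gimap7 a TCF/LEF match overlapped a STAT match. Gimap6, the highest member, had no match to AGGAAG or TGNGGT in its window. The window does hold CGGAAG, which shares the ETS core GGAA but was not counted as a match. A match is a description of letters only.

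The 250 bases before the start are shown for Gimap4, the member farthest toward CD4, and for the paralogs Gimap3 and Gimap5, which differed in opposite directions. Capitals mark matches to the ETS motif AGGAAG and to the loose RUNX pattern TGNGGT, on either strand. Gimap4 (chr6:48684328-48684577, plus strand) had ETS matches at positions -87 and -33 and a RUNX match at -145, counted from the start. Gimap3 (chr6:48770852-48771101, minus strand) had 1 ETS match at -85 and no RUNX match. Gimap5 (chr6:48745947-48746196, plus strand) had an ETS match at -45. Its ACCCCA at -231 matches the loose RUNX pattern but not the stricter core.
Gimap4: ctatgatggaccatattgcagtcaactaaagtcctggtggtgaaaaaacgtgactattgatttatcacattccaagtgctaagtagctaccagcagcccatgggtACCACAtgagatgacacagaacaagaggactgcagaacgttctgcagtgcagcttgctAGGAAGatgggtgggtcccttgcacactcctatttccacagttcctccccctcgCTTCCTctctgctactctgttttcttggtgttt
Gimap3: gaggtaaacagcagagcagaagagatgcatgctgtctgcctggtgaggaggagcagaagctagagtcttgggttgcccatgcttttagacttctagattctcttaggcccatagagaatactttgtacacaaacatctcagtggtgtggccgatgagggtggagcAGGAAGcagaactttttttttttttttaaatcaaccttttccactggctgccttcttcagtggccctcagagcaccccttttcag
Gimap5: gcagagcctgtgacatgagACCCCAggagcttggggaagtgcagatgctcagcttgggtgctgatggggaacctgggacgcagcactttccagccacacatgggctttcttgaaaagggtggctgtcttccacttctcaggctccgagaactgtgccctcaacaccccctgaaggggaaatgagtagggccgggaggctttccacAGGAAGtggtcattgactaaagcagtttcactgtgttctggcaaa

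Genes that work beside GIMAP proteins or resemble them were described from lists drawn up with earlier results of these data known, and in each the 2 highest genes and the 1 that differed most are named by rule. The BCL2 family, whose members set the threshold for mitochondrial cell death and have been reported to bind GIMAP proteins, had a median log2 difference of -0.09 over 8 compared genes. Of them 3 had intervals on the CD4 side of 1 and 4 on the CD8 side, and 0 were at least 2-fold apart on the log2 scale with the pseudocount. The prosurvival gene Mcl1 was the highest, at 128 RPKM (CD4) and 99.9 RPKM (CD8), 1.28-fold higher in CD4 with an interval of 1.24 to 1.31. The death effector Bax was at 26.4 RPKM (CD4) and 50.1 RPKM (CD8), 1.90-fold higher in CD8 with an interval of 1.71 to 2.11. Bcl2, named outside the rule after its value was seen, was at 19.7 and 19.3 RPKM, a ratio of 1.02 (0.976 to 1.07) that was not distinguishable from 1.

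The ATG8 family and its lipidation machinery, which build the autophagosome, had a median of -0.03 over 13 genes, with 6 intervals on each side of 1 and 0 genes at least 2-fold apart on the log2 scale with the pseudocount. Sqstm1, a cargo receptor, was at 149 RPKM (CD4) and 128 RPKM (CD8). Map1lc3b was at 63.7 RPKM (CD4) and 83.3 RPKM (CD8), and Map1lc3a, which differed most, at 3.34 and 7.05. Without the pseudocount Map1lc3a was 2.11-fold higher in CD8 (1.62 to 2.77). Gabarapl2, the GIMAP6 partner, named outside the rule, was at 46.5 RPKM (CD4) and 43.7 RPKM (CD8), a ratio of 1.06.

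Medians of other GTPase families lay nearer to 0. The interferon-inducible GTPases of the IRG, GBP and Mx groups, which act against pathogens inside cells, had a median log2 difference of -0.05 over 16 compared genes. Of them 6 had intervals on the CD4 side and 8 on the CD8 side. Ifi47 was at 215 RPKM (CD4) and 250 RPKM (CD8), and Igtp at 130 and 92.2 RPKM, a 1.41-fold ratio toward CD4 (1.35 to 1.46). Mx1, at 5.14 RPKM (CD4) and 11.4 RPKM (CD8), was the 1 gene of this list at least 2-fold apart on the log2 scale with the pseudocount. Iigp1, named outside the rule, was at 21.4 and 10.6 RPKM, 2.02-fold higher in CD4 without the pseudocount (1.86 to 2.20) and at 0.95 on the log2 scale with it. Tgtp1, a near copy of Tgtp2, was listed at 0 in both libraries, and levels within such sets of near copies are uncertain. The septins, cytoskeletal GTPases whose fold is related to that of GIMAP proteins, had a median of 0.03 over 8 compared genes, 4 with intervals on the CD4 side and 3 on the CD8 side. Sept1 was at 275 RPKM (CD4) and 229 RPKM (CD8), Sept9 at 133 and 110 RPKM, and Sept8, which differed most, at 0.639 and 1.33 RPKM, 2.09-fold higher in CD8 without the pseudocount (1.57 to 2.80). The housekeeping list used for scaling had a median of 0.02 over 12 genes, with Actb at 6133 and 5858 RPKM, Eef2 at 1570 and 1533, and Gusb, which differed most, at 20.7 and 33.7. The difference between the GIMAP median and these medians was not tested.

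Genes of naive T cell maintenance came nearest to the GIMAP median among these lists, at 0.31 over 15 genes. Intervals lay on the CD4 side for 12 of them and on the CD8 side for 1, and 0 were at least 2-fold apart. Ccr7, the lymph node homing receptor, was at 453 RPKM (CD4) and 426 RPKM (CD8). The quiescence gene Slfn2 differed most, at 363 RPKM (CD4) and 221 RPKM (CD8), 1.64-fold higher in CD4 with an interval of 1.60 to 1.68, close to the ratio of Gimap3. The 1 gene on the CD8 side, Klf2, a factor for T cell recirculation, was at 35.4 RPKM (CD4) and 54.3 RPKM (CD8) and is named outside the rule.

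**Figure D5:**
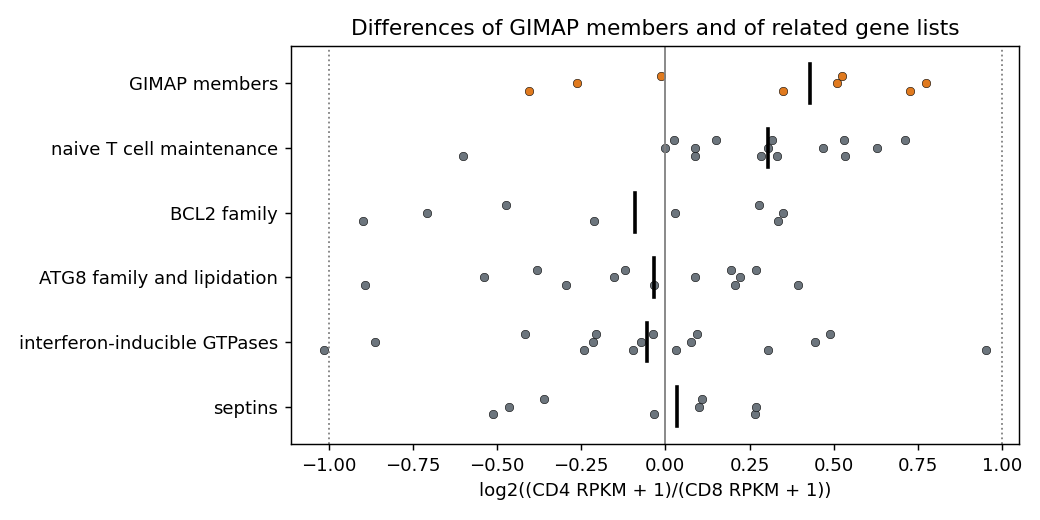
log2((CD4 RPKM + 1)/(CD8 RPKM + 1)) of each GIMAP gene (orange) and of each compared gene of the 5 other lists (grey), 1 library per cell type; thick black bars are list medians and dotted lines mark a 2-fold difference. The GIMAP median of 0.43 is followed by that of naive T cell maintenance at 0.31, and the other 4 medians lie between -0.09 and 0.03.

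The 5 compared genes nearest to the family's median point in the plane of CD4 and CD8 levels (161 and 131 RPKM) were Psmd4, Fam65b, Arhgef1, Capza1 and Tcf20. Likeness here is the Euclidean distance of log2(RPKM + 1) over 2 libraries, which ranged from 0.06 for Psmd4 to 0.10 for Tcf20. Psmd4, a ubiquitin receptor of the proteasome, was at 155 RPKM (CD4) and 134 RPKM (CD8), and Tcf20, a transcriptional coregulator, at 172 and 128 RPKM. The actin capping gene Capza1 was at 153 and 137 RPKM, the guanine nucleotide exchange factor gene Arhgef1 at 152 and 128, and Fam65b at 156 and 125.

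The cell types on the labels were checked against their markers. Cd4 was at 305 RPKM in the CD4 library and 8.89 in the CD8 library, and Cd8a at 2.5 and 518 RPKM. Cd8b1 was at 21.4 RPKM in the CD4 library (748 reads) and 788 in the CD8 library, a 36.7-fold difference against 207-fold for Cd8a. All 7 T cell markers were expressed, with summed levels of 2346 RPKM (CD4) and 2052 RPKM (CD8). Single T cell markers went both ways, 4 toward CD4 and 3 toward CD8. Toward CD4, Cd5 was at 289 and 120 RPKM, Cd6 at 204 and 136, Cd2 at 389 and 326, and Lat at 472 and 412. Toward CD8, Cd3d was at 176 and 216, Cd3e at 142 and 149, and Cd3g at 673 and 694. B cells, NK cells and endothelium express GIMAP genes too. The 6 B cell markers summed to 3.76 RPKM (CD4) and 30.2 RPKM (CD8), of which Cd79b made up 2.14 and 28.8, and Cd79a, Ms4a1, Pax5 and Cd22 were below 1 RPKM in both. The 5 NK markers summed to 0.697 RPKM (CD4) and 6.01 RPKM (CD8), mostly Gzma at 0.556 and 4.51 RPKM. Klrb1c was at 0.0308 and 1.36 RPKM (2 and 85 reads) and Klre1 at 0 and 0.139 RPKM (0 and 8 reads), both higher in the CD8 library, while Ncr1 was at 0.111 and 0 RPKM (4 and 0 reads) and Klra8 was listed at 0 in both. Of the 5 endothelial markers, Pecam1, which naive T cells also express, was at 105 RPKM (CD4) and 52.4 RPKM (CD8), and Cdh5, Kdr, Tek and Emcn were below 0.2 RPKM in both. The myeloid, dendritic, erythroid, platelet and stromal lists summed to at most 7.57 RPKM in either library, with Cd14, Siglech, Hba-a1, Hbb-b1, Col1a2 and Col3a1 listed at 0 in both. Some other genes of these lists were detected at low levels and went both ways. Itgam was at 1.62 RPKM (CD4) and 0.559 RPKM (CD8), while S100a8 was at 0.520 and 2.48 and Itgax at 0.263 and 1.07. The globin zeros are of limited use as a check for erythroid cells, because the files also hold Beta-s, a symbol that RefSeq lists for the beta-globin gene Hbb-bs and that is outside the list, at 3.81 RPKM (CD4) and 1.71 RPKM (CD8). The part of such cells in the GIMAP ratios was not tested.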

How the data were processed

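Total RNA depleted of ribosomal RNA from 1 naive CD4 and 1 naive CD8 sample was made into SOLiD low-input libraries, per the labels' protocols. The submitters' processing notes name TopHat, HTSeq and the build mm9, without versions. The deposited values are RPKM, as the authors computed them, with 26882 rows for 23167 symbols in each library. Symbols on several rows, Gimap8 among them, carried identical values and were counted once. Not given in the sources used here were the gene annotation, the strand setting and how reads mapping to several places were treated.

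Library totals and reads were recovered from the RPKM as the numbers that make reads and lengths whole, which held for all 12735 genes above 0 in both libraries. The length taken was the smallest possible one within 3% of a GENCODE M21 length, otherwise the nearest. The lengths of the members came out between 1267 and 3694 bases. Recovered reads summed to 1.12 (CD4) and 1.13 (CD8) times the totals, an excess whose origin was not tested. Where a gene's reads are too high, its interval is too narrow. For Gimap8 a length of 1847 is possible too, and its interval would then be 1.38 to 1.47.

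Intervals of a ratio between libraries or between 2 genes of 1 library are exact Clopper-Pearson 95% intervals of the split of reads, and those of single RPKM values are exact Poisson intervals. Those of the family sum and of the ratio between a gene pair use a normal approximation on the log scale. The log2 difference used a pseudocount of 1 RPKM, which understates the differences of low genes. Groups came from the cell type on the labels. The 8 members were named throughout, with all measured flanking genes, the 5 nearest genes, and in each list the 2 highest genes and the 1 with the largest difference. Not every gene so chosen is reported here. Motifs, the gene pair and the overlap with Gm28053 were chosen after values were seen. Members, lists and tests were chosen with earlier results of these data known. The steps were tested on simulated data (14352 genes for CD4 against CD8), where both totals were found and 95.3% of intervals held the true fold. Reads were drawn there with counting error only, and each true length was among those searched. The simulation therefore checks the computation, not whether the deposited data meet its settings. Alternatives tried were other pseudocounts, filters and scalings and leaving out Gimap3 and Gimap5. Python 3.11.15 with numpy 2.4.6, pandas 2.3.3, scipy 1.17.1 and matplotlib 3.10.9 was used. No coordinates of the members are given on mm9, because the annotation at hand is of GRCm38.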

Additional observations from a re-analysis of the deposited data

How the results depend on the processing

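No member was at least 2-fold apart under any of the alternatives run, and the family median stayed above 0 under each of them. With the libraries rescaled to 1 common sum of RPKM the margin was narrow. Gimap4 was then at 0.988 and Gimap3 at 0.941 on the log2 scale, just under the cutoff of 1. After the libraries were scaled to 1 common sum of RPKM, the median log2 difference of the family was 0.64 and the log2 ratio of its summed RPKM 0.74, while the median of all genes moved by 0.21. Without Rn45s in that sum, an alternative chosen after seeing the data, they were 0.63 and 0.73. Centred on the median gene they were 0.35 and 0.45, and rescaled to the housekeeping list 0.37 and 0.47. That last scaling used the list's summed RPKM, 9143 (CD4) and 8759 (CD8). Actb alone held 6133 and 5858 of it, so the scaling rests mostly on that gene. Leaving out Gimap3 and Gimap5 put the log2 ratio of the sum at 0.50 and could not move the median. Centring and the housekeeping scaling each put the interval of Gimap1 on the CD8 side, which made 3 members on that side in place of 2. Of 64 values of single members under the alternatives, 38 stayed inside the member's counting interval and 26 moved out of it. All 26 moved under a change of scaling, and the pseudocounts moved none out. The filters leave a member's value as it is, so those values were fixed in advance and are no check. The 1 member that changed sign was Gimap1, at 0.20 and 0.19 in the rescaled sums. The number of all genes at least 2-fold apart, 561, was 890 with a pseudocount of 0.1 RPKM, 198 with 5 RPKM and 360 with a filter at 5 RPKM. Under the scalings it was 802 with 1 common sum, 786 without Rn45s in that sum, 585 centred and 576 by the housekeeping list. No paired analysis was possible because each cell type has 1 library. The depth sets counting intervals of a few percent on each ratio, and the spread between animals, sorts and library preparations was not measured.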
